A study of Mus musculus with 6 samples.

Results

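Solute carriers are the membrane proteins that move nutrients, metabolites and ions into, out of and within cells. Of the 23420 rows of the deposited expression table, 367 carried a name built as Slc, a family number, a letter or letters and a member number. Of these, 169 had 3 or more libraries at 1 TPM or above and form the set described here. TPM, a unit of transcript abundance, divides the reads of a gene by its length and scales every library to the same total, so levels of different genes can be set side by side per length. The other 198 named rows did not pass this filter, and 143 of them were listed at 0 in all 6 libraries. Because the name alone decides, the set includes 4 rows that encode no carrier: Slc9a3r1 (a scaffold protein), Slc4a1ap (an adaptor), Slc7a6os (a gene next to Slc7a6) and Slc2a4rg-ps. They are counted apart.

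The cells were induced T (iT) cells from the spleens of irradiated B-NDG mice, an immunodeficient CD45.1 strain, that had received induced hematopoietic progenitor cells (iHPCs). The iHPCs were CD45.2 cells grown from iR9 pluripotent stem cells, which carry a doxycycline-inducible Runx1-p2a-Hoxa9 cassette at Rosa26. The study describes doxycycline during the culture that made such iHPCs and transplantation without it, but elsewhere also recipients that were fed it, so the regime of the sequenced mice is uncertain. Each library came from 1000 sorted cells, 3 from CD4 single-positive (CD4SP) iT cells and 3 from CD8 single-positive (CD8SP) iT cells. The donor cells, the cassette, the host strain and the organ are thus shared by both populations, and no natural T cell library enters the comparison. The labels give no age. By the study's text the recipients were young adult mice when they were irradiated and the spleen cells were sorted some weeks later, and it calls each column a biological replicate without naming its mouse.

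T cells take up amino acids, glucose and other nutrients through carriers of the plasma membrane, and many of these are known to be induced when a T cell is activated. Within the cell, the Slc25 family carries nucleotides, phosphate, cofactors and amino acids across the inner mitochondrial membrane. Ion carriers set the cell's pH, volume and content of zinc, magnesium, iron and phosphate. The question put to the table was which carriers, by substrate family, differed in level between CD4SP and CD8SP iT cells.

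The defining genes followed the labels: Cd4 lay at 331, 281 and 279 TPM in CD4SP iT cells and 0.104, 0 and 0 TPM in CD8SP iT cells, and Cd8a at 2.93, 0.319 and 2.2 TPM in CD4SP iT cells and 1147, 1161 and 1038 TPM in CD8SP iT cells. Between 9971 and 10649 genes reached 1 TPM per library, and 158 to 176 of the named carrier rows did. TPM keep no sequencing depth, so the depth of these libraries is unknown and no counting interval can be given. Ribosomal protein genes took 24.1% to 28.7% of the TPM in CD4SP and 32.1% to 35.9% in CD8SP iT cells. Across the 10476 tested genes the median difference was 0.28 (log2) in favour of CD4SP iT cells. A gene difference can be set beside this median as well as 0. The cause of the shift was not tested. CD8SP replicates 1 and 2 differed by a median of 0.075 in log2 units, while other pairs within a population differed by 0.170 to 0.313, and CD4SP replicate 2 differed most from its partners (0.297 and 0.313). In bulk samples, fewer cells of a type and less RNA per cell cannot be told apart.

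Most carriers did not pass the test, and those that did were nearly all higher in CD4SP iT cells. Of the 169 members, 20 (11.8%) passed in favour of CD4SP and 1 (0.592%) in favour of CD8SP iT cells. The CD8SP call and 1 of the CD4SP calls (Slc11a1) passed the filter only through the population where they were high, which fixed their direction, so nothing is read from them. Slc41a3, Slc12a8, Slc26a2, Slc4a8 and Slc2a6 reached 1 TPM in only 1 CD8SP library each. Their CD4SP libraries alone met the filter, which favours a call in that direction. Over all 10476 tested genes the shares called were 7.92% and 1.8%, together 9.73%. A call is an adjusted p under 0.05 (limma on log2(TPM + 1), Benjamini-Hochberg over all tested genes) with a difference over 2-fold on that scale, which understates the change of low genes. The median log2 fold change of the members was 0.30, against 0.28 over all tested genes; by family it was 0.34 for amino acid, 0.32 for glucose, -0.26 for lactate, 0.38 for nucleoside, 0.23 for mitochondrial, 0.41 for ion and 0.40 for other carriers. In 64 members (37.9%) every CD4SP library lay above every CD8SP library, and in 7 (4.14%) the reverse held; the shares over all tested genes were 36.6% and 6.61%. The 2 rescalings of the libraries moved the split: 10 members in favour of CD4SP and 2 in favour of CD8SP iT cells after median-of-ratios rescaling, and 9 and 2 after quantile normalization, where the shares over all genes became 4.67% and 2.85%, and 4.21% and 3.18%. The median over all genes moved from 0.28 to 0.0013 and -0.015 with these rescalings, and to 0.14 without the ribosomal protein genes. Under at least 1 of these 3 scalings 49 of the 169 members, none of them called, changed sign; a called member, over 2-fold apart, lay too far from 0 for such shifts to turn it. A further 10 members, all higher in CD4SP iT cells, passed the adjusted p but not the 2-fold limit. By the adjusted p alone, 31 members (18.3%) passed, 30 of them in favour of CD4SP iT cells. Over all tested genes 20.8% passed, 17.6% in favour of CD4SP iT cells. None of the further 10 members passed the adjusted p after the rescalings (adjusted p = 0.0828 to 0.349 with median-of-ratios and 0.130 to 0.337 with quantile scaling).

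**Figure D1:**
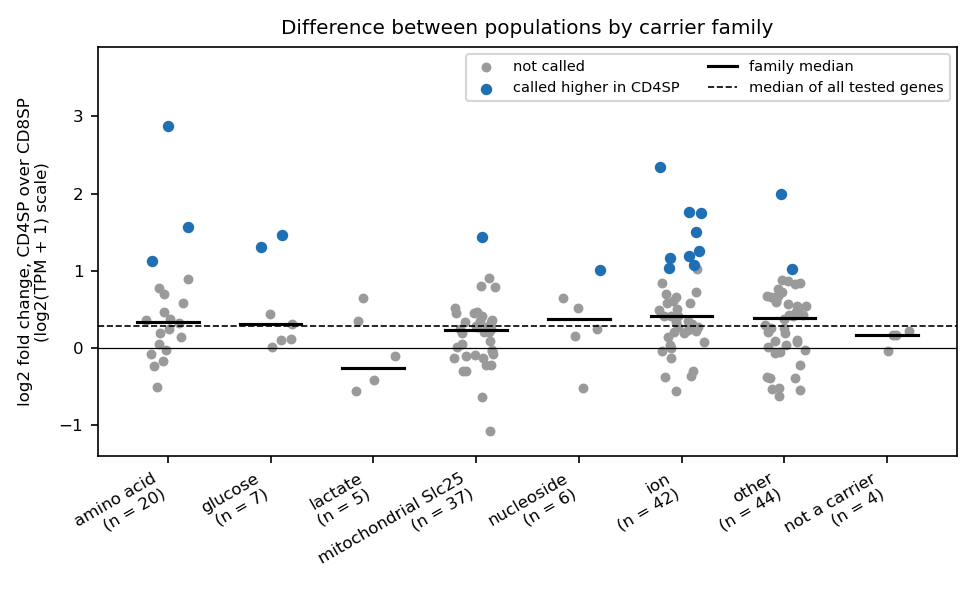
The log2 fold change of 165 of the 169 members (CD4SP over CD8SP, log2(TPM + 1) scale) by family, with grey points not called, blue points called higher in CD4SP, a solid line at the median of all members of each family and a dashed line at the median of all tested genes. The ion family holds the most blue points and Slc15a3 of the amino acid family the highest one; medians are of TPM as deposited and move with the scaling of the libraries.

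In level, the set was dominated by mitochondrial carriers. The 169 members summed to 7189 ± 867 TPM in CD4SP and 6661 ± 491 TPM in CD8SP iT cells, and the populations overlapped. The 38 Slc25 members held 55.5% of this sum, and the 3 highest members alone, Slc25a5, Slc25a3 and Slc25a4, held 42.6%. The ion members held 9.74%, the amino acid members 8.29%, the glucose members 4.96%, the nucleoside members 2.33% and the lactate members 0.571%. Mean levels ranged from under 5 TPM in 49 members to over 100 TPM in 10.

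**Figure D2:**
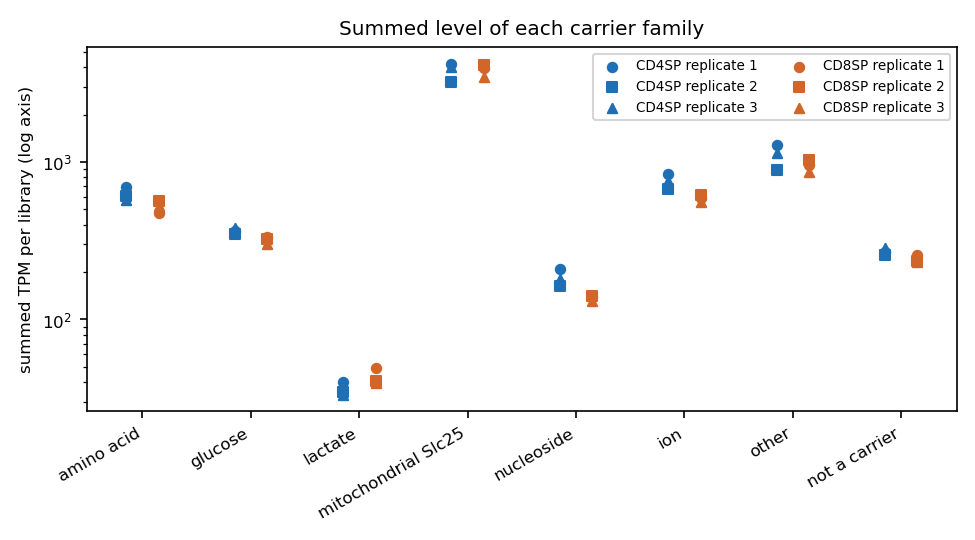
Summed TPM of the members of each family in every library, on a log axis, with CD4SP iT cells in blue and CD8SP iT cells in orange and 1 symbol per replicate number. The 3 CD4SP points lie above the 3 CD8SP points for the amino acid, glucose, nucleoside and ion families in TPM as deposited; the sign of the difference of means turns for amino acid and glucose after median-of-ratios rescaling, and for glucose after quantile normalization too.

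Among amino acid and peptide carriers, 3 of 20 tested members were called higher in CD4SP iT cells and none in CD8SP, beside 7.92% and 1.8% of all tested genes. Under each of the 2 rescalings 2 were called. Slc15a3, a proton-coupled carrier of histidine and small peptides in lysosomes (chr19:10839727-10859362, plus strand), had the largest log2 fold change of the whole set on the log2(TPM + 1) scale; with a pseudocount of 0.1 that of the low gene Slc11a1 was larger. It lay at 17.4, 16.2 and 11.1 TPM in CD4SP iT cells and 1.23, 1.04 and 1.15 TPM in CD8SP iT cells. The populations did not overlap, and the means differed 13.1-fold (log2 fold change 2.87, SE 0.24, adjusted p = 0.000185 by limma). Slc15a3 shares 1541 nt (28.1%) of its exonic sequence with Tmem132a on the opposite strand, and whether strand was used in counting is not stated; Tmem132a did not reach the filter. The related Slc15a2, also a peptide carrier, lay at 3.88, 6.41 and 4.63 TPM in CD4SP iT cells and 2.13, 1.87 and 2.55 TPM in CD8SP iT cells and was not called (log2 fold change 0.89, adjusted p = 0.0413). Slc15a4, the lysosomal paralog of Slc15a3, lay at 15.4, 11.1 and 12.5 TPM in CD4SP iT cells and 14, 14.8 and 12.3 TPM in CD8SP iT cells, so the populations overlapped.

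Slc38a6, of the sodium-coupled neutral amino acid family (chr12:73286779-73354049, plus strand), lay at 7.95, 9.58 and 9.18 TPM in CD4SP iT cells and 3.23, 2.62 and 1.44 TPM in CD8SP iT cells, with no overlap (log2 fold change 1.56, SE 0.26, adjusted p = 0.00529). Its longest transcript of 3927 nt matches other genes closely (3260 nt at 98.3% identity to Gm42860), so its level is uncertain. Slc38a10 of the same family (chr11:120103960-120151346, minus strand) lay at 23.4, 16.1 and 17.6 TPM in CD4SP iT cells and 5.92, 5.7 and 14.8 TPM in CD8SP iT cells. CD8SP replicate 3 stood near the CD4SP libraries, and the call was close to its threshold (log2 fold change 1.13, adjusted p = 0.0470). It was lost without CD4SP replicate 1, 2 or 3 (adjusted p = 0.133, 0.0523 and 0.106) and without CD8SP replicate 1 or 2 (0.139 and 0.140). Under 5 of 17 alternatives it was kept.

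Slc1a5, Slc7a5 and Slc3a2 were not called. Slc1a5, the glutamine carrier of the plasma membrane and the highest member of this family, lay at 279, 234 and 262 TPM in CD4SP iT cells and 244, 246 and 208 TPM in CD8SP iT cells (95% interval of the log2 fold change -0.13 to 0.43). Slc7a5, the large neutral amino acid carrier that brings in leucine, lay at 13.8, 12.2 and 15.2 TPM in CD4SP iT cells and 16.1, 14.2 and 18.4 TPM in CD8SP iT cells (interval -0.64 to 0.19). These intervals leave room for a difference below 2-fold in either direction. Slc3a2, the CD98 heavy chain that holds Slc7a5 and Slc7a6 in the membrane, lay at 146, 149 and 47.8 TPM in CD4SP iT cells and 54.7, 132 and 129.7 TPM in CD8SP iT cells. In each population 1 library was far below the others, CD4SP replicate 3 and CD8SP replicate 1, which leaves an interval of -1.04 to 1.14. Slc7a6, an exchanger of cationic and neutral amino acids, ranged over 28.4 to 48.3 TPM, and Slc7a1, the arginine carrier, over 4.67 to 9.97 TPM. The small neutral amino acid carriers Slc38a1 and Slc38a2 lay at 15.3 to 21.5 TPM and 43.2 to 72.2 TPM. Slc38a2 was above in every CD4SP library, but its difference did not pass the test (log2 fold change 0.38, adjusted p = 0.144). Slc43a2, a carrier of branched-chain and aromatic amino acids, and Slc16a10, which takes aromatic ones, lay at 6.88 to 10.1 TPM and 0.570 to 3.01 TPM and overlapped.

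A few members of the family passed the adjusted p but not the 2-fold limit, and lost the former under both rescalings. Slc36a1, a proton-coupled carrier of small amino acids found on lysosomes, lay at 9.14, 9.73 and 8.64 TPM in CD4SP iT cells and 5.23, 5.78 and 3.94 TPM in CD8SP iT cells (log2 fold change 0.78, adjusted p = 0.0349). Slc38a9, the lysosomal arginine sensor of the mTORC1 pathway, lay at 7.86, 8.85 and 9.01 TPM in CD4SP iT cells and 4.13, 5.71 and 4.84 TPM in CD8SP iT cells (log2 fold change 0.71, adjusted p = 0.0450). In both the populations did not overlap. The taurine carrier Slc6a6 just missed the adjusted p, at 16.3, 18.5 and 20.7 TPM in CD4SP iT cells and 12.3, 13 and 10.6 TPM in CD8SP iT cells (log2 fold change 0.58, adjusted p = 0.0508). Summed over the 20 members, the level was 572 to 699 TPM in CD4SP and 473 to 566 TPM in CD8SP iT cells, a log2 ratio of 0.26 that became -0.041 after median-of-ratios rescaling.

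**Figure D3:**
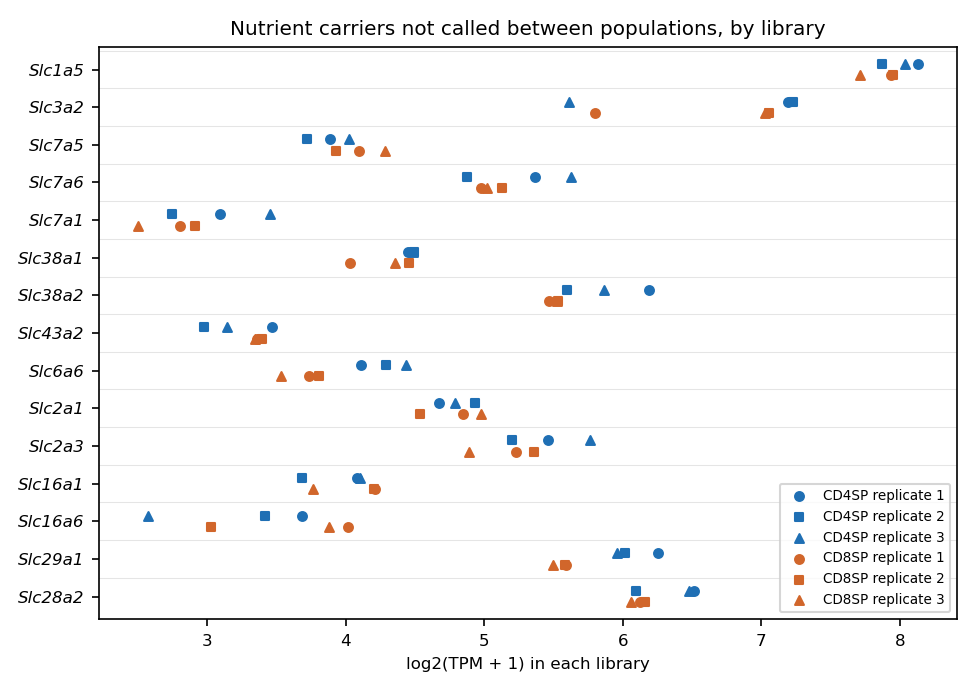
Log2(TPM + 1) of 15 nutrient carriers that were not called, 1 row per gene and 1 symbol per library, CD4SP in blue and CD8SP in orange. Slc1a5 is the highest of the genes shown, and the low points of Slc3a2 are CD4SP replicate 3 and CD8SP replicate 1.

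The glucose and sugar family gave 2 calls among 7 tested members, both higher in CD4SP iT cells, beside 7.92% of all tested genes, and only the call of Slc45a4 held under the 2 rescalings. Neither was a main glucose carrier of T cells. Slc45a4, of a family named for proton-coupled sugar transport (chr15:73577424-73645762, minus strand), lay at 19.97, 14.1 and 18.8 TPM in CD4SP iT cells and 5.34, 6.09 and 5.7 TPM in CD8SP iT cells (log2 fold change 1.46, SE 0.20, adjusted p = 0.00212). Its CD4SP libraries all lay above its CD8SP libraries, and 632 nt of its transcript match Gm5408 at 96.0% identity. Slc2a6, a glucose transporter family member of internal membranes (chr2:27021363-27027998, minus strand), was low, at 3.41, 5.93 and 2.29 TPM in CD4SP iT cells and 0.644, 0.773 and 1.24 TPM in CD8SP iT cells, again without overlap (log2 fold change 1.31, SE 0.33, adjusted p = 0.0268). Slc2a6 reached 1 TPM in only 1 CD8SP library, so its CD4SP libraries alone met the filter. The call of Slc2a6 was lost without CD4SP replicate 1, CD8SP replicate 1 or CD8SP replicate 2 (adjusted p = 0.0608, 0.0980 and 0.0869). It was lost too with the median-of-ratios and quantile scalings and with CD8SP replicates 1 and 2 averaged (adjusted p = 0.0751, 0.123 and 0.0886).

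Slc2a1 (GLUT1), the glucose carrier that activated T cells depend on, lay at 24.6, 29.6 and 26.6 TPM in CD4SP iT cells and 27.9, 22.2 and 30.6 TPM in CD8SP iT cells. The means were almost equal, and the 95% interval of the log2 fold change was -0.38 to 0.41. Slc2a3 (GLUT3), the high-affinity glucose carrier, lay at 43.1, 35.8 and 53.3 TPM in CD4SP iT cells and 36.5, 40.1 and 28.6 TPM in CD8SP iT cells (interval -0.13 to 0.76). The highest member was Slc50a1, a sugar carrier of the SWEET family, at 260.3, 253 and 267 TPM in CD4SP iT cells and 249.8, 241 and 228 TPM in CD8SP iT cells. Every CD4SP library of Slc50a1 was above every CD8SP library, yet the difference was small and not called (log2 fold change 0.12, adjusted p = 0.436), and its sign turned under the 2 rescalings and after removal of the ribosomal protein genes. Slc2a8 lay at 6.18 to 13.2 TPM and Slc2a9, which also carries urate, at 1.61 to 4.44 TPM. The family's sum was 349.6 to 384 TPM in CD4SP and 303 to 335 TPM in CD8SP iT cells, and this order of means turned under both rescalings.

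The lactate family, the Slc16 monocarboxylate carriers, had 6 tested members. Slc16a1 (MCT1), which carries lactate and pyruvate across the plasma membrane of T cells, lay at 15.9, 11.9 and 16.2 TPM in CD4SP iT cells and 17.5, 17.5 and 12.6 TPM in CD8SP iT cells. The populations overlapped, and the 95% interval of the log2 fold change was -0.58 to 0.37. Slc16a3 (MCT4), the lactate exporter of strongly glycolytic cells, failed the filter, at 1.06, 2.22 and 0 TPM in CD4SP iT cells and 0, 0.622 and 0 TPM in CD8SP iT cells. Bsg, the chaperone that carries Slc16a1 to the cell surface, lay at 167, 166 and 182 TPM in CD4SP iT cells and 185, 185 and 180.1 TPM in CD8SP iT cells, far above Slc16a1 in TPM, and did not differ by the test (log2 fold change -0.095, adjusted p = 0.542). Slc16a6, a carrier of ketone bodies and taurine, lay at 11.9, 9.68 and 4.94 TPM in CD4SP iT cells and 15.2, 7.15 and 13.7 TPM in CD8SP iT cells, and CD4SP replicate 3 was its lowest library. Slc16a5 was above in every CD8SP library but was not called (6.66, 5.19 and 7.12 TPM in CD4SP iT cells and 10.2, 10.4 and 8.55 TPM in CD8SP iT cells; log2 fold change -0.56, adjusted p = 0.0911). Summed, the family lay at 33.3 to 39.8 TPM in CD4SP and 39.4 to 49.3 TPM in CD8SP iT cells, with overlap.

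Of 6 nucleoside and nucleobase carriers, only Slc43a3 was called, higher in CD4SP iT cells, beside 7.92% of all tested genes. Slc43a3, which takes up purine nucleobases (chr2:84936579-84958509, plus strand), lay at 30.6, 21.1 and 20.8 TPM in CD4SP iT cells and 10.7, 11.7 and 11.5 TPM in CD8SP iT cells (log2 fold change 1.01, SE 0.20, adjusted p = 0.00919). It lay just past the 2-fold limit, and its log2 fold change dropped to 0.84 without CD4SP replicate 1 and 0.98 without CD8SP replicate 1, where it was no longer called. The call was lost too with the median-of-ratios and quantile scalings and without the ribosomal protein genes (log2 fold change 0.72, 0.68 and 0.88). Slc29a1 (ENT1), the main equilibrative nucleoside carrier of the plasma membrane, lay at 75.5, 63.8 and 61.2 TPM in CD4SP iT cells and 47.3, 46.9 and 44.2 TPM in CD8SP iT cells. It did not overlap and passed the adjusted p but not the 2-fold limit (log2 fold change 0.52, adjusted p = 0.0301). Slc28a2 (CNT2), the sodium-coupled purine nucleoside carrier, was the highest of the family at 90.6, 67.4 and 88.2 TPM in CD4SP iT cells and 68.9, 70.6 and 65.9 TPM in CD8SP iT cells. Gm14085 matches it at 95.9% identity over 3749 nt, so the level of Slc28a2 is uncertain. Slc29a3, the nucleoside carrier of lysosomes, lay at 6.88 to 11 TPM. The family's sum was 164 to 210.2 TPM in CD4SP and 132 to 141 TPM in CD8SP iT cells; its log2 ratio of 0.43 was lower but kept its sign under both rescalings and after removal of the ribosomal protein genes.

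The mitochondrial Slc25 family had 38 tested members, of which 2 (5.26%) were called, both higher in CD4SP iT cells, against 7.92% of all tested genes. One of them was Slc25a24, a calcium-regulated exchanger of ATP-Mg for phosphate (chr3:109123149-109168457, plus strand). It lay at 35.4, 39.5 and 47.4 TPM in CD4SP iT cells and 15.4, 13.2 and 14.6 TPM in CD8SP iT cells without overlap, with means of 40.8 ± 6.08 and 14.4 ± 1.13 TPM (SD, n = 3 each; log2 fold change 1.43, SE 0.17, adjusted p = 0.000991). Its paralog Slc25a25 lay at 9.25, 10.7 and 12.8 TPM in CD4SP iT cells and 5.42, 5.2 and 6.9 TPM in CD8SP iT cells, also without overlap, and passed the adjusted p but not the 2-fold limit (log2 fold change 0.80, adjusted p = 0.0326). Slc25a24 kept its call under every alternative run.

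The abundant mitochondrial carriers were not called. The ADP/ATP exchanger Slc25a5 was the highest carrier of all, at 1679, 1106 and 1420.2 TPM in CD4SP iT cells and 1638, 1739 and 1474 TPM in CD8SP iT cells. Its lowest library was CD4SP replicate 2, and the 95% interval of its log2 fold change was -0.58 to 0.13; Gm5529 and Gm5560 match it at 96.8% and 98.3% identity. Slc25a4, the other ADP/ATP exchanger, lay at 367, 312 and 449 TPM in CD4SP iT cells and 396, 419.6 and 332 TPM in CD8SP iT cells (interval -0.39 to 0.33). The phosphate carrier Slc25a3 lay at 1101, 960.4 and 1126 TPM in CD4SP iT cells and 1115, 1113 and 934 TPM in CD8SP iT cells (interval -0.26 to 0.28). All of them overlapped between populations, with intervals inside a 2-fold range. Slc25a1, the citrate carrier, and Slc25a39, needed for glutathione uptake, overlapped as well, at 27.2 to 42 TPM and 70.8 to 100.2 TPM. Slc25a20, the carnitine and acylcarnitine exchanger of fatty acid oxidation, lay at 46.6, 52.3 and 46.6 TPM in CD4SP iT cells and 34.4, 33.5 and 32.8 TPM in CD8SP iT cells. It did not overlap and passed the adjusted p with a difference under 2-fold (log2 fold change 0.52, adjusted p = 0.0280). Slc25a53, a little-described member, was above in every CD8SP library, at 1.52, 0.346 and 1.96 TPM in CD4SP iT cells and 4.24, 3.77 and 2.7 TPM in CD8SP iT cells. Its difference was not called in TPM as deposited (log2 fold change -1.07, adjusted p = 0.0617) but was called higher in CD8SP iT cells after median-of-ratios rescaling and quantile normalization (adjusted p = 0.0304 and 0.0147). The family's sum of 3251 to 4228 TPM in CD4SP and 3461 to 4118 TPM in CD8SP iT cells overlapped.

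Of 44 tested ion carriers 10 (22.7%) were called, all higher in CD4SP iT cells, beside 7.92% of all tested genes. Of the 10, Slc11a1 passed the filter only through its CD4SP libraries. Slc41a3, Slc12a8, Slc26a2 and Slc4a8 reached 1 TPM in all 3 CD4SP libraries but in only 1 CD8SP library each. Their CD4SP libraries alone thus met the filter, which favours that direction. The 10 covered magnesium (2 of 2 tested), bicarbonate (2 of 3), potassium-chloride and related carriers (2 of 6) and zinc (2 of 17). They also covered iron and manganese (1 of 2) and anions (1 of 4). None was a phosphate, copper, sodium-calcium or sodium-proton carrier. With the median-of-ratios and quantile scalings 4 and 3 of the 44 were called: 1 magnesium, 1 cation-chloride and 1 zinc carrier in both, Slc11a1 in the former, and no bicarbonate or anion carrier. Every CD4SP library lay above every CD8SP library in 22 of the 44 (50%), and the reverse held in 1 (2.27%), beside 36.6% and 6.61% of all tested genes. The family's sum was 679 to 836 TPM in CD4SP and 559 to 619 TPM in CD8SP iT cells, and its log2 ratio of 0.36 became 0.053 after median-of-ratios rescaling.

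Both tested magnesium carriers were called, beside 7.92% of all tested genes. Slc41a3, a magnesium carrier of mitochondria (chr6:90604725-90646412, plus strand), lay at 11.7, 5.09 and 10.6 TPM in CD4SP iT cells and 0.912, 1.38 and 0.480 TPM in CD8SP iT cells (log2 fold change 2.35, SE 0.34, adjusted p = 0.00277). Its CD4SP replicate 2 was lower than the other CD4SP libraries but still above all CD8SP libraries. Slc41a1, the sodium-magnesium exchanger of the plasma membrane (chr1:131827493-131848865, plus strand), lay at 23.4, 25.2 and 18.9 TPM in CD4SP iT cells and 10.4, 9.17 and 8.17 TPM in CD8SP iT cells (log2 fold change 1.19, SE 0.19, adjusted p = 0.00390). The difference of Slc41a1 fell under 2-fold with both rescalings.

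Zinc carriers form a pair of families, Slc39 (ZIP), which brings zinc into the cytosol, and Slc30 (ZnT), which takes it out. Of 17 tested, Slc39a13 and Slc30a1 were called, 1 from each, beside 7.92% of all tested genes. Slc39a13 (ZIP13), a carrier of the secretory pathway (chr2:91061791-91070417, minus strand), lay at 18.3, 18.9 and 21 TPM in CD4SP iT cells and 6.04, 8.29 and 4.7 TPM in CD8SP iT cells (log2 fold change 1.5, SE 0.22, adjusted p = 0.00293). It shares 215 nt (4.42%) of its exons with Psmc3 on the other strand, whose TPM of 236 ± 28.9 in CD4SP and 192 ± 14.4 in CD8SP iT cells (SD, n = 3 each) were not called different. Slc30a1 (ZnT1), the zinc exporter of the plasma membrane and a known target of the metal-responsive factor MTF1 (chr1:191906767-191913247, plus strand), lay at 9.95, 11.3 and 10.04 TPM in CD4SP iT cells and 4.43, 4.02 and 4.76 TPM in CD8SP iT cells (log2 fold change 1.08, SE 0.20, adjusted p = 0.00681). With both rescalings and without the ribosomal protein genes its difference fell under 2-fold. Slc39a1, the highest zinc carrier, lay at 50.1, 72.4 and 51.4 TPM in CD4SP iT cells and 44.4, 49.9 and 43.9 TPM in CD8SP iT cells, and its CD4SP libraries lay above without reaching a call (adjusted p = 0.228). Slc39a6 and Slc39a10, which form a complex at the plasma membrane, overlapped, at 25.8 to 39 TPM and 2.62 to 4.96 TPM. Slc30a5, of the Golgi, lay at 18.4 to 37.4 TPM. The metallothionein gene Mt1, another MTF1 target that binds zinc, lay at 12.6, 19.8 and 14.7 TPM in CD4SP iT cells and 17.9, 15.1 and 16.3 TPM in CD8SP iT cells, and Mt2 at 0.684, 1.2 and 0 TPM in CD4SP iT cells and 3.1, 1.61 and 0 TPM in CD8SP iT cells; neither was called.

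The start regions of 3 of the 5 called metal carriers are shown because a short motif of metal-regulated genes could be looked for in them. Each is the RefSeq stretch from 250 bases before to 50 bases after an annotated start, on GRCm38.p6, 5′ to 3′ on the gene's strand; capitals mark matches on either strand to the E-box CACGTG or to a core metal response element, TGCACNC or TGCGCNC. They cover chr6:90618996-90619295 (plus strand), chr2:91070266-91070565 (minus strand) and chr1:191906531-191906830 (plus strand). The Slc41a3 window lies inside the gene as the GENCODE annotation draws it, so it belongs to one of that gene's starts.
Slc41a3: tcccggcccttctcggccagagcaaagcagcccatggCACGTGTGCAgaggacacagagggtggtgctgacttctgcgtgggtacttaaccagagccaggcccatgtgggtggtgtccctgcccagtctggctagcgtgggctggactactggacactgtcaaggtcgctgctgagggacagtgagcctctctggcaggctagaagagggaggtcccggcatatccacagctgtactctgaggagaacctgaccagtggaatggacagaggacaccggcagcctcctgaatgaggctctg
Slc39a13: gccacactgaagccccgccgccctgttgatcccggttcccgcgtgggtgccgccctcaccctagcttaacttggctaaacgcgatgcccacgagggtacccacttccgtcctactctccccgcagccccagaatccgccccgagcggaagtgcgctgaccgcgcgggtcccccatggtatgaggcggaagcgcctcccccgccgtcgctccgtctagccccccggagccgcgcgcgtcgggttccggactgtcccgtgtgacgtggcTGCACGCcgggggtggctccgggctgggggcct
Slc30a1: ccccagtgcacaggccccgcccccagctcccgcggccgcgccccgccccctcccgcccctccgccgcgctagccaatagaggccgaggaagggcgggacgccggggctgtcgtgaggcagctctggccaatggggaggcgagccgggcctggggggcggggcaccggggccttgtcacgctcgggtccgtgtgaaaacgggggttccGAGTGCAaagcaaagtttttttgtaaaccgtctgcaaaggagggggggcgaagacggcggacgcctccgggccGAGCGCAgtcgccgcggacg
In Slc41a3 the E-box overlaps a match to the metal element, Slc39a13 has 1 match to the metal element downstream of its start, and Slc30a1 has 2. These 3 were chosen after the matches were known; of the other called metal carriers, the window of Slc41a1 holds 1 match to the metal element and that of Slc11a1 none. Such matches were common: the metal element occurred in 38.1% of the 126 members with a promoter entry, in 30.8% of the 13 called members with one, in 36.3% of the promoters of tested genes and in 25.6% of all 27025 promoters of the table. The E-box occurred in 15.1%, 7.69%, 10.5% and 7.24% of the same sets. A match describes these letters only and is not a binding site.

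Among the cation-chloride carriers, Slc12a8, a divergent member of the family (chr16:33517328-33664135, plus strand), lay at 5.76, 6.65 and 2.88 TPM in CD4SP iT cells and 1.05, 0.721 and 0.486 TPM in CD8SP iT cells, with no overlap (log2 fold change 1.75, SE 0.33, adjusted p = 0.00768). Slc12a7 (KCC4), a potassium-chloride cotransporter of cell volume control, was much higher in level and nearly equal between populations, at 49.8, 39.1 and 37.1 TPM in CD4SP iT cells and 42.4, 42.5 and 40.4 TPM in CD8SP iT cells. Slc12a2 (NKCC1), which loads the cell with chloride, lay at 4.0, 1.22 and 3.94 TPM in CD4SP iT cells and 0.900, 0.636 and 1.12 TPM in CD8SP iT cells and was not called (log2 fold change 1.02, adjusted p = 0.0820), with CD4SP replicate 2 far below its partners. Without that library it was called (adjusted p = 0.00977).

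Of the bicarbonate carriers, Slc4a7, a sodium-bicarbonate cotransporter (chr14:14702279-14799940, plus strand), lay at 16.5, 10.8 and 12.2 TPM in CD4SP iT cells and 4.39, 5.47 and 5.93 TPM in CD8SP iT cells (log2 fold change 1.17, SE 0.23, adjusted p = 0.00903). The difference of Slc4a7 fell under 2-fold after median-of-ratios rescaling and quantile normalization (log2 fold change 0.90 and 0.79), where it was not called. Slc4a8, a sodium-driven chloride-bicarbonate exchanger (chr15:100761747-100823968, plus strand), was low, at 2.19, 2.4 and 3.45 TPM in CD4SP iT cells and 0.973, 1.21 and 0.285 TPM in CD8SP iT cells (log2 fold change 1.04, adjusted p = 0.0477). The call of Slc4a8 was lost when any 1 of the 6 libraries was left out, with adjusted p of 0.0761, 0.0502 and 0.133 without CD4SP replicates 1, 2 and 3 and 0.115, 0.0845 and 0.117 without CD8SP replicates 1, 2 and 3, and it held in only 3 of 16 alternatives. Slc9a9, a sodium-proton exchanger of endosomes, lay at 33.1, 26.5 and 42.6 TPM in CD4SP iT cells and 22.9, 24.1 and 19.5 TPM in CD8SP iT cells and was not called (adjusted p = 0.0722). Slc26a2, the sulfate carrier (chr18:61192919-61211612, minus strand), lay at 2.83, 4.98 and 2.16 TPM in CD4SP iT cells and 0.624, 0.427 and 1.32 TPM in CD8SP iT cells (log2 fold change 1.25, adjusted p = 0.0330). It was no longer called without CD4SP replicate 1 or 2 (adjusted p = 0.0680 and 0.0509) or without CD8SP replicate 1 or 2 (0.109 and 0.118). Median-of-ratios rescaling, quantile normalization, removal of the ribosomal protein genes, the replicate block and averaging of CD8SP replicates 1 and 2 also ended its call (adjusted p = 0.0921, 0.143, 0.0600, 0.0629 and 0.110). Slc20a1, the phosphate carrier and highest ion member, lay at 109, 71.5 and 102 TPM in CD4SP iT cells and 95.3, 102 and 108 TPM in CD8SP iT cells, so the populations overlapped.

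Slc11a1 (NRAMP1), the metal carrier of macrophage phagosomes (chr1:74375195-74386062, plus strand), lay at 1.15, 4.83 and 2.94 TPM in CD4SP iT cells and 0.271, 0 and 0 TPM in CD8SP iT cells, and passed the filter only through its CD4SP libraries, so a difference had to follow (log2 fold change 1.76, SE 0.40, adjusted p = 0.0169). Its call was lost without CD4SP replicate 3, CD8SP replicate 2 or CD8SP replicate 3 (adjusted p = 0.0590, 0.0588 and 0.0568) and after quantile normalization (0.0576). Because Slc11a1 is a myeloid gene, the myeloid markers belong beside it: of 7 listed genes in the table, S100a8, S100a9 and Mpo were listed at 0 in every library, Lyz2 was called higher in CD4SP iT cells (30.9, 17.1 and 18.3 TPM in CD4SP iT cells and 8.33, 6.87 and 3.64 TPM in CD8SP iT cells), and Cd68 was called higher in CD8SP iT cells (1.45, 0.596 and 6.59 TPM in CD4SP iT cells and 15.5, 13.5 and 17.5 TPM in CD8SP iT cells). Their sum was 17.7 to 32.7 TPM in CD4SP and 20.7 to 24.2 TPM in CD8SP iT cells, and their part in the result was not tested. Slc11a2 (DMT1), the iron importer of endosomes, lay at 26.1, 18 and 20.7 TPM in CD4SP iT cells and 32.8, 34.4 and 28.3 TPM in CD8SP iT cells. It was above in every CD8SP library but was not called (log2 fold change -0.55, adjusted p = 0.0627). Slc40a1, ferroportin, the iron exporter, failed the filter, at 0.287, 1.02 and 0.745 TPM in CD4SP iT cells and 0.0924, 0 and 0 TPM in CD8SP iT cells.

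**Figure D4:**
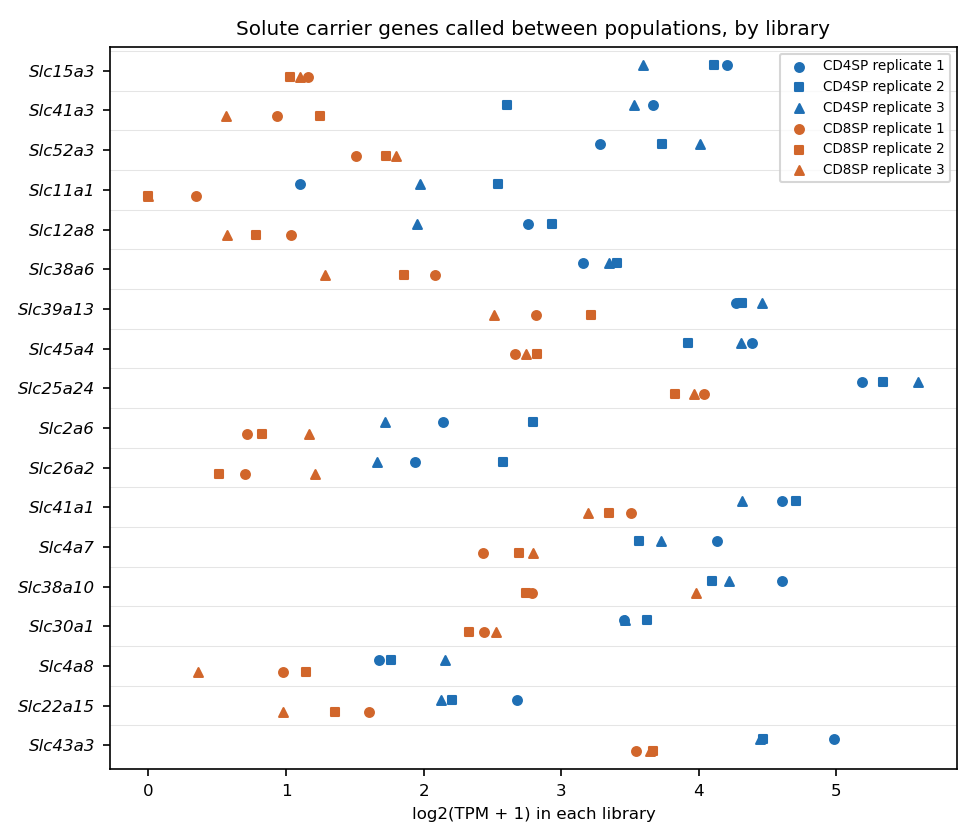
Log2(TPM + 1) of 18 of the 21 called members in every library, in order of log2 fold change, with CD4SP in blue, CD8SP in orange and 1 symbol per replicate number. The 3 CD4SP points lie to the right of the 3 CD8SP points in each of the 18 rows.

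Of the 44 members of other families, 2 (4.55%) were called higher in CD4SP iT cells, against 7.92% of all tested genes. Slc52a3, a riboflavin carrier (chr2:151996511-152009258, plus strand), lay at 8.72, 12.3 and 15.1 TPM in CD4SP iT cells and 1.84, 2.31 and 2.48 TPM in CD8SP iT cells (log2 fold change 2.0, SE 0.25, adjusted p = 0.00137), with no overlap. The second riboflavin carrier of the set, Slc52a2, lay at 20.2, 18.6 and 19.3 TPM in CD4SP iT cells and 13.2, 13.9 and 8.79 TPM in CD8SP iT cells and passed the adjusted p but not the 2-fold limit (log2 fold change 0.68, adjusted p = 0.0493). Slc22a15, of the organic cation family (chr3:101855776-101924453, minus strand), lay at 5.4, 3.62 and 3.36 TPM in CD4SP iT cells and 2.04, 1.56 and 0.973 TPM in CD8SP iT cells (log2 fold change 1.02, adjusted p = 0.0371). It kept its call in 5 of 16 alternatives, and lost it without CD4SP replicate 1 or 3 (adjusted p = 0.106 and 0.0617) and without CD8SP replicate 1, 2 or 3 (0.0739, 0.106 and 0.101). Slc19a1, the reduced folate carrier, lay at 27.3, 8.61 and 13.7 TPM in CD4SP iT cells and 24.5, 27.1 and 15.3 TPM in CD8SP iT cells, and its libraries differed as much within as between populations. None of the 20 tested Slc35 members, a family that includes nucleotide sugar carriers of the Golgi, was called. Slc35c2 passed the adjusted p alone (log2 fold change 0.66, adjusted p = 0.0113 by limma). It lay at 64.1, 63.3 and 54.4 TPM in CD4SP iT cells and 39.5, 36.6 and 37.8 TPM in CD8SP iT cells. The highest of these 44 was Slc44a2, a choline carrier-like protein, at 157, 137 and 173 TPM in CD4SP iT cells and 178, 177 and 186 TPM in CD8SP iT cells, where every CD8SP library lay above. None of the 4 rows that encode no carrier was called.

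A list of 47 carriers known from T cells, drawn up with these results in view, gave 42 that passed the filter and 7 that were called, all higher in CD4SP iT cells, beside 7.92% of all tested genes; since the list was drawn up that way, nothing is read from this count. Slc2a6, Slc43a3, Slc4a7, Slc11a1, Slc30a1 and Slc41a1, described above, were among these, and all of these but Slc11a1 lost their call under both rescalings. The other 5, Slc16a3, Slc1a4, Slc40a1, Slc7a11 and Slc7a7, failed the filter. Slc7a11, the cystine carrier, was listed at 0 in 4 libraries and reached at most 0.344 TPM. Slc7a7 lay at 0.528, 2.84 and 4.92 TPM in CD4SP iT cells and 0.450, 0.505 and 0.238 TPM in CD8SP iT cells, with its values above 1 TPM in CD4SP replicates 2 and 3.

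Of 44 listed genes that work with these carriers (chaperones and subunits, the mitochondrial pyruvate carrier, amino acid sensing, hypoxia, iron, zinc and kinases of the cation-chloride carriers), 40 were tested and 2 were called, both higher in CD4SP iT cells, beside 9.73% of all tested genes in either direction. Both are on the hypoxia list of 4 genes, and no pattern is read from them. Vhl of that list overlapped between populations (log2 fold change -0.018, adjusted p = 0.948 by limma). Egln1 passed the adjusted p but not the 2-fold limit (log2 fold change 0.57, adjusted p = 0.0305), and no longer passed under either rescaling. Hif1a, the oxygen-regulated factor that also drives glycolytic genes, lay at 56.4, 42 and 75.7 TPM in CD4SP iT cells and 18.4, 16.8 and 21.5 TPM in CD8SP iT cells (log2 fold change 1.54, SE 0.22, adjusted p = 0.00265). Egln3, an oxygen sensor that marks HIF proteins for destruction, lay at 7.29, 7.24 and 4.85 TPM in CD4SP iT cells and 0, 0.619 and 0 TPM in CD8SP iT cells (log2 fold change 2.65, SE 0.31, adjusted p = 0.000937). It reached 1 TPM in its CD4SP libraries alone and passed the filter through them, so a difference had to follow. Neither overlapped between populations. The mitochondrial pyruvate carrier, which is no Slc gene by name, is made of Mpc1 and Mpc2. Mpc1 lay at 103, 86.9 and 102 TPM in CD4SP iT cells and 66.4, 62.4 and 51.6 TPM in CD8SP iT cells and passed the adjusted p but not the 2-fold limit (log2 fold change 0.69, adjusted p = 0.0130), while Mpc2 lay at 99.4, 122 and 122 TPM in CD4SP iT cells and 103, 90.5 and 97.4 TPM in CD8SP iT cells and overlapped. Tfrc, the transferrin receptor that supplies iron to Slc11a2 in endosomes, lay at 15.8, 15.5 and 19.9 TPM in CD4SP iT cells and 17.1, 16.3 and 16 TPM in CD8SP iT cells and overlapped too. Of the 5 other iron genes listed, Fth1, the ferritin heavy chain that stores iron, lay at 1881, 1695 and 1757 TPM in CD4SP iT cells and 1132, 1167 and 1058 TPM in CD8SP iT cells (log2 fold change 0.67, adjusted p = 0.00282). Fth1, Aco1 and Ireb2, the last 2 of which encode iron regulatory proteins, passed the adjusted p but not the 2-fold limit. Every CD4SP library lay above in them (log2 fold change 0.69 and 0.60, adjusted p = 0.0465 and 0.0372 for Aco1 and Ireb2). Ftl1 did not pass, though every CD4SP library lay above (log2 fold change 0.33, adjusted p = 0.0689). Ncoa4 overlapped (log2 fold change 0.26, adjusted p = 0.432). Over all tested genes 17.6% passed the adjusted p in favour of CD4SP iT cells, and in 36.6% every CD4SP library lay above. Aco1 and Ireb2 no longer passed under either rescaling. None of 17 tested genes of amino acid sensing and response, among them Atf4, Myc and Mtor, was called. Lamtor3 of that list passed the adjusted p but not the 2-fold limit (log2 fold change 0.59, adjusted p = 0.0365 by limma). Its CD4SP libraries all lay above its CD8SP libraries, and it no longer passed under either rescaling.

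The populations also differed in markers of T cell subsets, given here beside the calls above. The regulatory T cell list (Foxp3, Il2ra, Ikzf2 and Ctla4) summed to 948 to 1235 TPM in CD4SP and 145 to 171 TPM in CD8SP iT cells, and all but Foxp3 were called higher in CD4SP iT cells. Foxp3 lay at 142, 6.56 and 167 TPM in CD4SP iT cells and 7.48, 7.48 and 10.05 TPM in CD8SP iT cells, with CD4SP replicate 2 as low as the CD8SP libraries. The NK cell list (5 genes) summed to 100.3 to 103 TPM in CD4SP and 486 to 536 TPM in CD8SP iT cells. Of its genes, Klrb1c, Klrd1 and Eomes were called higher in CD8SP iT cells and Ncr1 was listed at 0 throughout. Tyrobp, the remaining gene of that list, overlapped between populations and was not called (log2 fold change 0.14, adjusted p = 0.749 by limma). Klrd1 made up most of both sums, with a mean of 442 TPM for the CD8SP libraries against 82.3 TPM for the CD4SP libraries. B cell markers summed to 15.9 to 22.3 and 21.3 to 24.5 TPM, with Ms4a1 and Pax5 listed at 0. Red cell markers stayed at 1.11 TPM or less, with the red cell anion exchanger Slc4a1 listed at 0 in all 6 libraries. The part of these cells in the carrier differences was not tested.

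The filter left rows close on either side. Just inside, by the third highest of the 6 values, were Slc25a42 (1.0 TPM), Slc5a3 (1.03 TPM) and Slc16a11 (1.12 TPM), and just outside were Slc24a5 (0.987 TPM), Slc9a5 (0.982 TPM) and Slc5a11 (0.966 TPM). Of those inside, Slc5a3 and Slc16a11 passed only through the CD4SP libraries, and neither was called. Of those outside, Slc24a5 was listed at 0 in every CD8SP library and lay at 1.11, 1.67 and 0.987 TPM in CD4SP iT cells, while Slc5a11 was listed at 0 in every CD4SP library and lay at 0.966, 0.983 and 1.15 TPM in CD8SP iT cells. With no filter on low values both were called, Slc24a5 higher in CD4SP and Slc5a11 higher in CD8SP iT cells (log2 fold change 1.16 and -1.02, adjusted p = 0.00616 and 0.00454).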

How the data were processed

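RNA of 6 mouse libraries (3 CD4SP, 3 CD8SP iT cells; groups and replicate numbers from the sample titles) was amplified from sorted cells with a whole-transcriptome kit. The authors processed the reads with bcl2fastq, HISAT2, SAMtools and StringTie on mm10 (study text and processing notes) and deposited 1 table of TPM; strand use and the treatment of reads shared by similar genes are not given in the sources used here. TPM keep no depth, and 3 libraries a population limit the precision; an exact 0 may be a failed estimate.

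Tested were the 10476 genes that reached 1 TPM in 3 or more of the 6 libraries, as log2(TPM + 1) with limma 3.58.1 in R 4.3.3 (lmFit, eBayes with trend, population as the only term), p-values being adjusted by Benjamini-Hochberg over all of them; positive values mean higher in CD4SP iT cells. The pipeline was tested on simulated data. Errors are SD, or the model's SE. Where nothing ties libraries to separate mice, p-values measure only the spread between these samples. With 3 against 3, an exact permutation test cannot go below p = 0.1, so none was used.

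Members, families, partner and marker lists were chosen with earlier results of these data known. Named are called members, the 2 highest members of each of 6 substrate families, a list of 47 T cell carriers, the 3 rows nearest the filter on each side, called partner genes and Bsg, Mpc1, Mpc2 and Tfrc; Slc15a2, Slc15a4, Slc38a9, Slc25a25, Slc25a53, Slc16a5, Slc2a9, Slc35c2, Slc52a2, Slc44a2 and the other partner genes with values were added after their values were seen. A few genes that the rule names are not reported here; they remain in the counts and sums. Positions are GENCODE M21 on GRCm38, the assembly of mm10, matched by symbol for 168 of 169 members. Transcripts were compared with blastn 2.17.0 (at least 95% identity over at least 200 nt), which found a near copy for 15 members, the called Slc38a6 and Slc45a4 among them. Promoters are from RefSeq on GRCm38.p6, with an entry for 126 members. Alternatives were another pseudocount, 2 other filters, 2 rescalings of the libraries, removal of 81 ribosomal protein genes, no trend, library weights, a replicate block, no fold limit, leaving out each library and averaging CD8SP replicates 1 and 2.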

Additional observations from a re-analysis of the deposited data

How the results depend on the processing

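Of the 21 called members, 9 kept their call under every alternative run that kept them tested (among them Slc12a8, Slc15a3, Slc25a24, Slc38a6, Slc39a13, Slc41a3, Slc45a4 and Slc52a3), and 12 lost it in at least 1. No alternative addressed reads shared with the near copies of Slc38a6 and Slc45a4. The members called (21) became 12 after median-of-ratios rescaling and 11 after quantile normalization, 10 and 9 of them higher in CD4SP and 2 higher in CD8SP iT cells in both. Removal of the ribosomal protein genes left 13 higher in CD4SP iT cells. The count higher in CD8SP iT cells (1) was 0 with the filter of 5 TPM, with the replicate block and with CD8SP replicates 1 and 2 averaged. Leaving out a library gave 14 to 21 called, 14 to 20 higher in CD4SP and 0 to 1 higher in CD8SP iT cells; that 1 call was lost without CD4SP replicate 3 or any CD8SP library. Other filters gave 20 (none, where Slc24a5 and Slc5a11, which are no members, were called too) and 14 (5 TPM, 117 members tested) called, and no fold limit gave 31. Replicate numbers were used as a block although it is not stated whether same-numbered libraries share a mouse. The correlations of deviations were 0.0515, -0.0168 and 0.0887, which cannot show whether the libraries are paired. The block left 17 members called, none higher in CD8SP iT cells. Unless fewer tested genes or samples say otherwise, the cause was not tested.

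The log2 ratio of summed TPM moved with the scaling. After median-of-ratios rescaling it was -0.041 for amino acid, -0.11 for glucose, 0.053 for ion, -0.57 for lactate, -0.32 for mitochondrial Slc25, 0.12 for nucleoside, -0.090 for other members and -0.15 for the rows that are no carrier. After quantile normalization the values were 0.0091 for amino acid, -0.037 for glucose, 0.031 for ion, -0.66 for lactate, 0.15 for nucleoside, -0.071 for other members and -0.086 for no carrier. Without the ribosomal protein genes they were 0.10 for amino acid, 0.033 for glucose, 0.20 for ion, -0.42 for lactate, 0.27 for nucleoside and -0.0051 for no carrier.

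Named members that were not called and lay near 0 changed sign in some settings. After median-of-ratios rescaling the log2 fold change was -0.052 for Slc7a6, -0.10 for Slc38a1, -0.16 for Slc1a5, -0.25 for Slc3a2, -0.19 for Slc50a1, -0.18 for Slc2a8, -0.28 for Slc2a1, -0.15 for Slc39a6, -0.11 for Slc25a1, -0.29 for Slc25a3, -0.056 for Slc28a2 and -0.11 for Slc29a3. After quantile normalization it was -0.019 for Slc7a1, -0.049 for Slc7a6, -0.14 for Slc38a1, -0.038 for Slc1a5, -0.18 for Slc3a2, -0.073 for Slc50a1, -0.26 for Slc2a8, -0.31 for Slc2a1, -0.018 for Slc39a10, -0.15 for Slc39a6, -0.097 for Slc25a1 and -0.22 for Slc29a3. Without the ribosomal protein genes it was -0.0092 for Slc1a5, -0.11 for Slc3a2, -0.043 for Slc50a1, -0.043 for Slc2a8, -0.14 for Slc2a1, -0.0078 for Slc39a6 and -0.15 for Slc25a3. With library weights it was -0.13 for Slc2a8, 0.0033 for Slc12a7, 0.036 for Slc20a1 and -0.012 for Slc25a3. With CD8SP replicates 1 and 2 averaged it was -0.12 for Slc3a2, -0.040 for Slc2a1, 0.0070 for Slc12a7 and 0.017 for Slc25a4. Leaving out 1 library gave -0.37 to 0.58 for Slc3a2, -0.39 to 0.29 for Slc16a10, -0.21 to 0.28 for Slc2a8, -0.12 to 0.11 for Slc2a1, -0.13 to 0.077 for Slc12a7, -0.25 to 0.056 for Slc20a1, -0.25 to 0.031 for Slc16a1, -0.072 to 0.084 for Slc25a3, -0.17 to 0.094 for Slc25a4, -0.22 to 0.047 for Slc25a39 and -3.71e-04 to 0.30 for Slc29a3.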

Other observations

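Some members differed more between libraries of 1 population than between populations. Slc35b3, of the Slc35 family, lay at 124, 6.01 and 17.3 TPM in CD4SP iT cells and 10.5, 62 and 6.1 TPM in CD8SP iT cells, the widest spread within a population of all 169 members. Slc25a2, a mitochondrial ornithine carrier, lay at 5.13, 4.06 and 0.252 TPM in CD4SP iT cells and 1.79, 1.1 and 0 TPM in CD8SP iT cells, and Slc9a7, a sodium-proton exchanger, at 1.21, 1.29 and 2.65 TPM in CD4SP iT cells and 0, 0.798 and 3.29 TPM in CD8SP iT cells. In both populations of Slc35b3, and in the CD8SP libraries of Slc9a7, a single library makes up most of the mean. Between CD4SP replicates 1 and 2, 16 of the 169 members differed over 2-fold, against 2 between CD8SP replicates 1 and 2.

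The Slc35 and Slc37 families were broadly present without a call: 20 of 27 named Slc35 rows and 4 of 4 Slc37 rows passed the filter. Slc35b1, an ATP and ADP carrier of the endoplasmic reticulum, was the highest of them, at 163, 99.1 and 170.0 TPM in CD4SP iT cells and 116, 130.1 and 120.4 TPM in CD8SP iT cells. Slc37a1 was above in every CD8SP library, at 28.6, 21.9 and 24.7 TPM in CD4SP iT cells and 32.7, 32.6 and 32.8 TPM in CD8SP iT cells, and Slc35f2 likewise, at 8.84, 8.43 and 10.8 TPM in CD4SP iT cells and 14.9, 14.6 and 12.5 TPM in CD8SP iT cells; neither was called (adjusted p = 0.115 and 0.0760). By contrast only 3 of 27 named rows of the organic ion carriers (Slc22 and relatives) passed. Slc22a5, the carnitine carrier among them, lay at 19.5, 11.2 and 15.2 TPM in CD4SP iT cells and 8.54, 8.56 and 6.19 TPM in CD8SP iT cells and passed the adjusted p but not the 2-fold limit (log2 fold change 0.87, adjusted p = 0.0379). Slc48a1, the heme carrier of lysosomes, did so too, at 45.4, 51.8 and 38.7 TPM in CD4SP iT cells and 32.4, 28.4 and 26.9 TPM in CD8SP iT cells (log2 fold change 0.61, adjusted p = 0.0311). These genes were chosen after their values were seen.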
